A study of Mus musculus with 17 samples.

Results

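The microRNA processing and Argonaute genes encode the proteins that cut, export and use microRNAs. They were taken as 10 gene names on the array, Rnasen (Drosha), Dgcr8, Xpo5, Dicer1, Tarbp2, Eif2c1 to Eif2c4 (Ago1 to Ago4) and Tnrc6a, and every non-control probe carrying such a name was kept. This gave 32 probes for 10 of the 28090 gene names and 41174 probes measured. The names of the array design are old, and the RefSeq gene table of GRCm38.p6 listed Rnasen as Drosha and the Eif2c genes as Ago1, Ago2, Ago3 and Ago4.

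MicroRNA precursors are folded RNAs that the nuclear ribonuclease Drosha, with its RNA-binding partner Dgcr8, trims out of long primary transcripts. Exportin 5 (Xpo5) carries the hairpin to the cytoplasm, where Dicer1, helped by the RNA-binding protein Tarbp2, removes the loop, and an Argonaute protein keeps a single strand as its guide. Argonautes then recruit GW182 proteins such as Tnrc6a, which bring in the machinery that shortens and decays the target mRNA. Loss of Dicer in mouse blood-forming cells is known to impair stem cell function.

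The study profiled mRNA in 6 populations sorted from the bone marrow of female, young adult C57Bl/6 mice with no engineered allele or treatment, to learn how microRNAs and their targets change as blood stem cells differentiate. Marrow was depleted of lineage-positive cells and enriched for Kit, then sorted. The 3 HSC subsets were Kit+ Sca1+ and were split by CD34 and FLT3 into long-term stem cells (LT-HSC, negative for both, 2 arrays), short-term stem cells (ST-HSC, CD34+ FLT3-, 3 arrays) and multipotent progenitors (MPP, positive for both, 3 arrays). The 3 myeloid populations, from a separate sort, were Kit+ Sca1- and were split by CD34 and Fc gamma receptor into common myeloid (CMP, intermediate for both), granulocyte-monocyte (GMP, positive for both) and megakaryocyte-erythroid progenitors (MEP, negative for both), with 3 arrays each. Each sample pooled several mice, and 1 LT-HSC array held a pool of the second and the third replicate. P-values therefore measure the spread between pools of mice and the arrays made from them. Without scanning run in the fit, that spread also includes differences between the runs described below.

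Between 41.4% and 70.1% of the spots on an array were well above background, and the lowest share was on the unnumbered LT-HSC array. The 17 arrays came in 3 scanning runs: run 1 held 6 myeloid arrays, run 2 held 1 array of each population except LT-HSC, and run 3 held 6 HSC arrays. Runs 1 and 3 therefore held myeloid populations alone or HSC subsets alone, and the HSC-to-myeloid differences of single probes are given without and with run as a term of the fit. Run 2 was scanned on 2 days, with MPP, CMP and GMP on 1 slide and ST-HSC and MEP on another. The sort markers were above background in all 6 populations. Cd34 mRNA was lowest in MEP, at 9.80 against 14.29 to 16.64 elsewhere (log2). It was 14.96 in LT-HSC, which were sorted as lacking the CD34 protein. Ly6a (Sca1) mRNA was 10.47 in LT-HSC, 8.88 in ST-HSC and 9.93 in MPP. It was 7.15 in CMP, 9.71 in GMP and 5.69 in MEP, so GMP, sorted as Sca1-, lay above ST-HSC. Flt3 mRNA was 8.24 in LT-HSC and 6.86 in ST-HSC, both sorted as FLT3-, and 9.93 in MPP. Lists of mature cell genes moved with the groups. The mean log2 level of 5 B cell genes was 7.49 to 7.74 in LT-HSC and 4.57 to 6.22 elsewhere, that of 5 T cell genes 5.73 to 6.13 against 2.43 to 4.93, and that of 5 mature neutrophil genes 14.46 to 15.35 against 10.98 to 15.12. The mean of 5 mature erythroid genes was 9.08 to 9.5 in LT-HSC, 7.88 to 9.12 in ST-HSC and 7.2 to 8.34 in MPP. It was 6.61 to 7.77 in CMP, 5.28 to 6.62 in GMP and 10.21 to 11.54 in MEP. Above background on every LT-HSC array were 3 of the B cell genes, 2 of the T cell genes, 5 of the neutrophil genes and 4 of the erythroid genes. The part of these lists in the results was not tested. Levels are quantile-normalized log2 intensities and may be set against each other within a probe only. Differences are on the log2 scale, with their standard error after ±, and a probe was called where limma's p-value, adjusted by Benjamini-Hochberg over all probes, was below 0.05. In these bulk samples a gene's lower level in each cell cannot be told apart from fewer cells that express it.

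The 32 probes are 60 bases long. The sequences shown here are those on which the account of probes of the same gene turns. Each has at least 1 sense frame free of stop codons, and the Rnasen probe and the second Dicer1 probe join stretches that lie 8671 and 2072 bases from end to end on the genome. The letters are in lower case throughout, with no position marked.
Rnasen A_52_P578347, chr15:12845176-12853846 (mm9, + strand): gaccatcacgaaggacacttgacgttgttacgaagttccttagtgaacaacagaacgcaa
Xpo5 A_52_P201232, chr17:46378755-46378814 (mm9, + strand): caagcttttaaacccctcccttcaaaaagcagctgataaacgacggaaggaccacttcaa
Dicer1 A_51_P483059, chr12:105960373-105960432 (mm9, - strand): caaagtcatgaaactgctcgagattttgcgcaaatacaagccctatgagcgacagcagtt
Dicer1 A_51_P333060, chr12:105930664-105932735 (mm9, - strand): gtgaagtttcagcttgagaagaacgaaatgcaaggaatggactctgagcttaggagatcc
Tnrc6a A_51_P311379, chr7:130317766-130317825 (mm9, + strand): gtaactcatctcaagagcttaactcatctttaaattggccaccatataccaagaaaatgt

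All 10 genes were measured in these cells, each with at least 1 probe well above background on 16 or more arrays. Of the 32 probes, 13 were above background on all 17 arrays, 10 on 13 to 16, 7 on 1 to 12 and 2 on none. The F-test over the 6 populations passed for 17 of the 32 member probes, against 40.6% of all probes, and these 17 covered 9 of the 10 genes. Eif2c1 was the gene without one.

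Most probes of the genes that make microRNAs were lower in HSC subsets than in myeloid populations, while 3 probes of Eif2c4 and the 2 3′-most probes of Tnrc6a were higher. Of the 32 probes, 16 were lower in HSC subsets, where 23.1% of all probes were, and 5 were higher, where 18.2% of all probes were. Among the 16 were A_52_P24793 and A_51_P113068 of Eif2c3 and A_52_P209328 of Xpo5, above background on 0, 4 and 5 arrays. By role, 3 of 6 probes of nuclear processing, 3 of 4 of export and 3 of 3 of cytoplasmic processing were lower and none of these 13 higher. Of the 16 Argonaute probes, 6 were lower and 3 higher, and of the 3 Tnrc6a probes 1 was lower and 2 higher. The median difference of the 32 probes was -0.47 on the log2 scale, against -0.02 over all probes. With run in the fit, 6 member probes were lower, against 7.64% of all probes, and 1 higher, against 6.86%, and the median was -0.32 against -0.09. The 6 were of Rnasen, Xpo5 (2 probes), Dicer1 (2 probes) and Eif2c2, and the 1 was of Eif2c4. Of the 21 probes called without run, 19 had the same sign among the 5 arrays of run 2 alone, against 86.2% of all called probes, and in 12 of the 21 the 2 HSC arrays of that run did not overlap its 3 myeloid arrays, against 48.4%. Within both slides of run 2 (MPP against CMP and GMP, ST-HSC against MEP), 17 of the 21 kept the sign, against 65.9% of all called probes. Scaling arrays by their 75th percentile in place of quantile normalization moved the median over all probes to 0.31 and that of the members to -0.22. Under it 6 member probes were higher and 12 lower. No share of all probes was taken under that scaling, and the shares above do not apply to these counts.

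**Figure D1:**
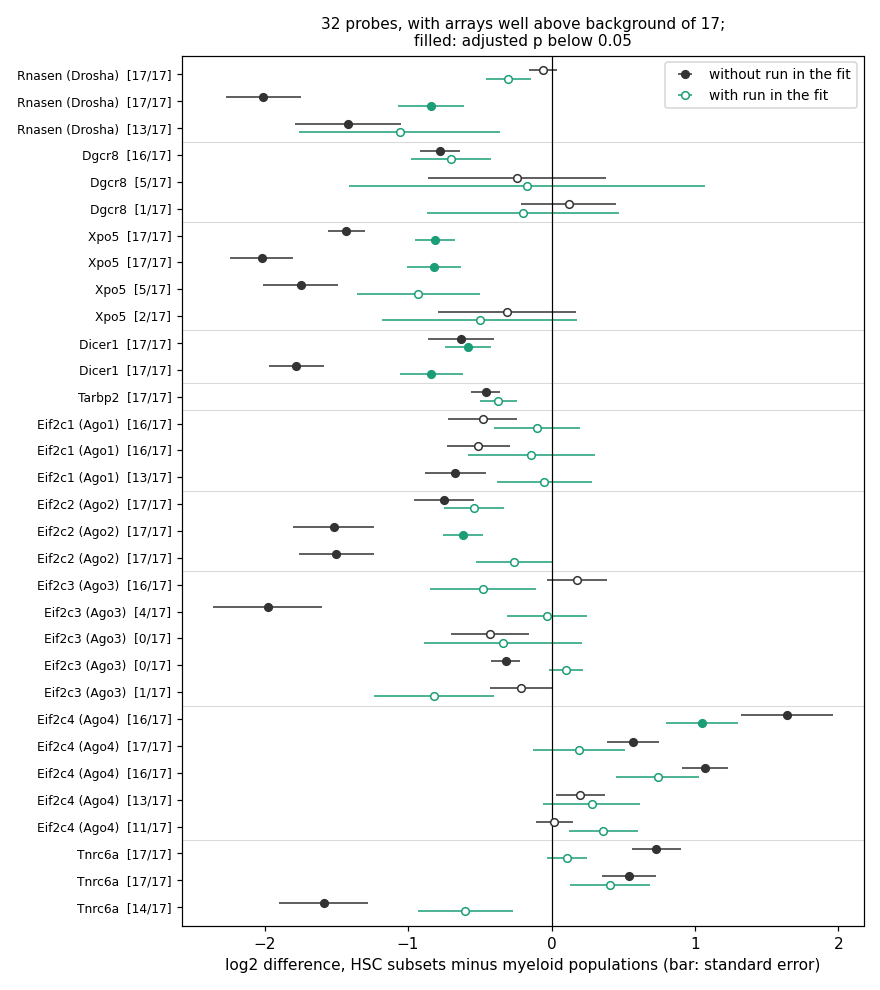
Difference in normalized log2 intensity between HSC subsets and myeloid populations for each of the 32 probes (rows, brightest probe of each gene on top, with the number of arrays on which it was well above background). Black points are the fit without scanning run and green points the fit with it, bars are standard errors and filled points passed an adjusted p of 0.05; most green points lie nearer to 0, and Eif2c4 lies right of 0 where Xpo5, Dicer1 and Eif2c2 lie left.

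Rnasen (Drosha), the nuclease of the nuclear step, gave different answers at different probes. Its brightest probe, A_51_P127186 (chr15:12864871-12864930, mm9), read 13.17 and 12.77 in LT-HSC, 12.98, 13.01 and 13.29 in ST-HSC and 13.03, 12.91 and 12.90 in MPP. It read 12.85, 12.77 and 13.05 in CMP, 12.82, 12.55 and 12.98 in GMP and 13.41, 13.37 and 13.81 in MEP. MEP lay above every other array, and the other 5 populations overlapped. HSC subsets and myeloid populations differed by -0.06 ± 0.10 (SE, adjusted p = 0.659), and by -0.30 ± 0.16 with run (adjusted p = 0.257). The probe 11084 bases upstream on the genome, A_52_P578347, was 7.44 to 8.39 over the 8 HSC arrays (median 8.0) and 8.68 to 10.93 over the 9 myeloid arrays (median 10.03). Its sides did not overlap, and the difference was -2.01 ± 0.26 (adjusted p = 4.19e-05), or -0.84 ± 0.23 with run in the fit (adjusted p = 0.0343). A dimmer probe 31637 bases upstream, above background on 13 arrays, differed by -1.42 ± 0.37 (adjusted p = 0.0077), and by -1.06 ± 0.70 with run (adjusted p = 0.382). Under 75th-percentile scaling its difference was -0.25 (adjusted p = 0.314), under normexp correction -0.29, in the values of the authors -0.43, and without the unnumbered LT-HSC array -0.94.

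Dgcr8, Drosha's partner, had a single probe above background on most arrays, A_52_P22446 (chr16:18254244-18254303, mm9). It read 6.47 and 5.63 in LT-HSC, 6.65, 6.10 and 6.81 in ST-HSC and 6.51, 6.61 and 6.90 in MPP. It read 7.07, 7.03 and 7.07 in CMP, 7.40, 7.21 and 6.83 in GMP and 7.37, 7.37 and 7.40 in MEP. The HSC arrays lay below the myeloid ones except for an MPP array of 6.90 and a GMP array of 6.83, and the 5.63 was not well above background. The difference was -0.78 ± 0.14 (adjusted p = 6.06e-04), and -0.70 ± 0.28 with run (adjusted p = 0.131). It was -0.51 under 75th-percentile scaling, -0.52 in the values of the authors and -0.34 under normexp correction, and the mean of the 3 probes was not called (-0.30, adjusted p = 0.474). The other 2 probes were above background on 5 and 1 arrays and were not called in either fit.

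Xpo5, the exporter of hairpin precursors, was lower in HSC subsets on every array at both bright probes. Its brightest probe, A_52_P201232, read 8.31 and 8.70 in LT-HSC, 8.79, 8.25 and 8.26 in ST-HSC and 8.23, 7.81 and 7.93 in MPP. It read 9.49, 9.45 and 8.92 in CMP, 9.84, 9.85 and 9.54 in GMP and 10.40, 10.27 and 9.92 in MEP. Every HSC array lay below every myeloid array, and the difference of -1.43 ± 0.13 (adjusted p = 3.27e-06) was 2.7-fold. With run it was -0.81 ± 0.14 (adjusted p = 0.00351), and in run 2 alone -0.95. The means ran from MPP (7.99 ± 0.21 SD, n = 3) through ST-HSC (8.43 ± 0.31, n = 3), LT-HSC (8.51 ± 0.28, n = 2), CMP (9.28 ± 0.32, n = 3) and GMP (9.75 ± 0.18, n = 3) to MEP. ST-HSC and LT-HSC overlapped, and every other neighbouring pair in that order lay apart. The probe A_51_P152191, 1029 bases further 3′, was 7.48 to 8.79 in HSC arrays and 9.30 to 10.57 in myeloid arrays, a difference of -2.02 ± 0.22 (adjusted p = 1.37e-05) and of -0.82 ± 0.19 with run (adjusted p = 0.0183). Of the remaining 2 probes, above background on 5 and 2 arrays, the former differed by -1.75 ± 0.26 (adjusted p = 1.34e-04), and the latter was not called. The call of the former was lost with run in the fit (-0.93 ± 0.43, adjusted p = 0.188) and under 75th-percentile scaling (-0.73, adjusted p = 0.103), and the difference was -0.44 in the values of the authors and -0.26 under normexp correction.

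Dicer1, which cuts the hairpin to a mature duplex, was lower in HSC subsets at both probes, with unequal size. The brightest, A_51_P483059, read 9.11 and 8.99 in LT-HSC, 8.22, 9.21 and 9.23 in ST-HSC and 8.58, 9.11 and 9.02 in MPP. It read 9.93, 9.70 and 8.99 in CMP, 10.25, 9.89 and 9.07 in GMP and 9.87, 9.73 and 8.79 in MEP. In each population measured in run 2, the run 2 array was the lowest, and the 2 sides overlapped across runs but not within run 2. The difference was -0.63 ± 0.23 (adjusted p = 0.0437) and -0.58 ± 0.16 with run (adjusted p = 0.037). Without run it missed the threshold when any of 12 of the 17 arrays was left out, with differences of -0.67 to -0.52 in those fits. Under normexp correction the difference was -0.52 (adjusted p = 0.0575). Of the 9 alternatives other than leaving out single arrays, 6 kept its direction and call. The probe A_51_P333060, 29709 bases further 3′ on the genome, was 6.42 to 7.67 over HSC arrays (median 6.78) and 8.06 to 8.93 over myeloid arrays (median 8.74). The sides did not overlap, and the difference was -1.78 ± 0.19 (adjusted p = 1.14e-05), or -0.84 ± 0.22 with run (adjusted p = 0.0287) and -1.07 under normexp correction.

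Tarbp2, which binds double-stranded RNA beside Dicer1, had 1 probe (chr15:102353827-102353886, mm9). It read 9.60 and 9.80 in LT-HSC, 9.56, 9.70 and 9.92 in ST-HSC and 9.74, 9.69 and 9.89 in MPP. It read 10.18, 10.18 and 9.84 in CMP, 10.21, 10.11 and 9.76 in GMP and 10.54, 10.59 and 10.36 in MEP. MEP stood above all other arrays, and the run 2 arrays of CMP and GMP fell among the HSC arrays. The difference was small, at -0.46 ± 0.10 (adjusted p = 0.00187), and -0.37 ± 0.13 with run (adjusted p = 0.0802).

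**Figure D2:**
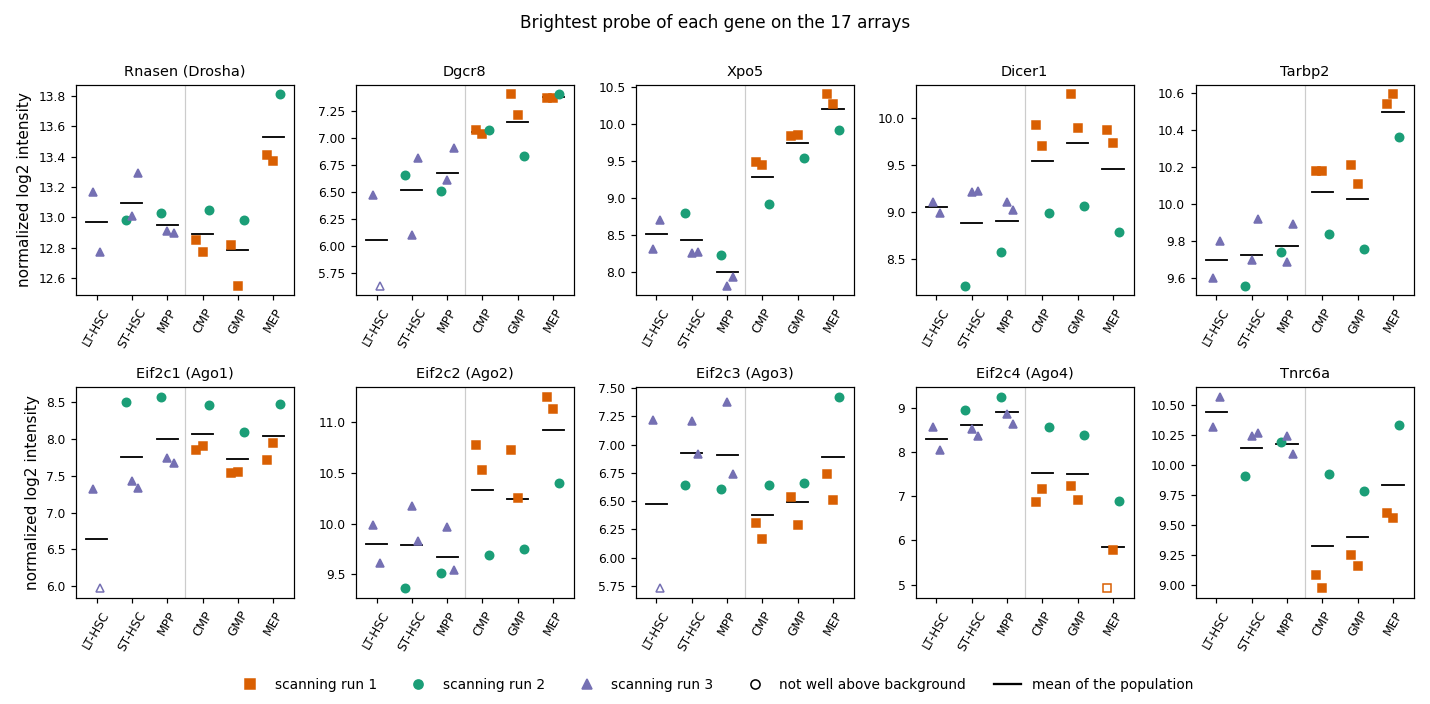
Normalized log2 intensity (vertical axis, a separate scale in each panel) of the brightest probe of each of the 10 genes on the 17 arrays by population; marker shape and colour give the scanning run, open markers were not well above background and bars are population means. Xpo5 separates HSC subsets from myeloid populations on every array, MEP is the highest population in 5 panels, and Eif2c4 is lowest in MEP.

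Of the 4 Argonautes, which hold the guide strand, Eif2c2 (Ago2) was lower in HSC subsets and Eif2c4 (Ago4) higher. Eif2c1, Eif2c3 and Eif2c4 are neighbours: their 13 probes lie within 182 kb on the - strand of chromosome 4 (chr4:126010997-126193194, mm9), and Eif2c2 lies on chromosome 15.

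Eif2c1 (Ago1) passed no F-test. Its brightest probe, A_52_P76402 (chr4:126112644-126112703, mm9), read 7.32 and 5.97 in LT-HSC, 8.50, 7.43 and 7.34 in ST-HSC and 8.57, 7.74 and 7.67 in MPP. It read 7.85, 7.90 and 8.46 in CMP, 7.54, 7.55 and 8.09 in GMP and 7.72, 7.94 and 8.47 in MEP. In each of the 5 populations of run 2 its run 2 array was the highest, and the 5.97 was not well above background. The difference between HSC subsets and myeloid populations was -0.48 ± 0.24 (adjusted p = 0.132) and -0.10 ± 0.30 with run (adjusted p = 0.886). A_52_P97489 differed by -0.51 ± 0.22 (adjusted p = 0.085), and by -0.14 ± 0.44 with run (adjusted p = 0.898). The dimmest probe, A_52_P313035, differed by -0.67 ± 0.21 (adjusted p = 0.0207), and by -0.05 ± 0.33 with run (adjusted p = 0.956). Its call was also lost without the pooled LT-HSC array, and under 75th-percentile scaling the difference was 0.23.

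Eif2c2 (Ago2), the Argonaute that can itself cut a target, was lower in HSC subsets at all 3 probes. The brightest, A_51_P180001 (chr15:72936863-72936922, mm9), read 9.99 and 9.61 in LT-HSC, 9.36, 10.17 and 9.83 in ST-HSC and 9.51, 9.97 and 9.54 in MPP. It read 10.78, 10.53 and 9.69 in CMP, 10.73, 10.25 and 9.75 in GMP and 11.25, 11.13 and 10.40 in MEP. MEP lay above all HSC arrays, and only the run 2 arrays of CMP and GMP reached down among them. The difference was -0.75 ± 0.21 (adjusted p = 0.0103) and -0.54 ± 0.21 with run (adjusted p = 0.126). The probe A_52_P101221, 428 bases upstream, was 7.28 to 7.42 on all 8 HSC arrays and 7.54 to 9.92 on the myeloid arrays, a difference of -1.52 ± 0.28 (adjusted p = 7.10e-04) and of -0.62 ± 0.14 with run (adjusted p = 0.0166). Its myeloid arrays of run 1 averaged 1.40 above those of run 2, larger than the run 2 difference between the sides, -0.62. The most upstream probe, A_52_P101218, differed by -1.50 ± 0.26 (adjusted p = 3.92e-04), by -0.26 ± 0.27 with run (adjusted p = 0.615) and by -0.77 under normexp correction.

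Eif2c3 (Ago3) had 1 probe above background on most arrays, A_52_P126513 (chr4:126010997-126011056, mm9). It read 7.22 and 5.73 in LT-HSC, 6.64, 7.21 and 6.92 in ST-HSC and 6.61, 7.38 and 6.74 in MPP. It read 6.31, 6.17 and 6.64 in CMP, 6.54, 6.29 and 6.66 in GMP and 6.74, 6.51 and 7.42 in MEP. The populations overlapped throughout, and the difference was 0.18 ± 0.21 (adjusted p = 0.527), or -0.48 ± 0.37 with run (adjusted p = 0.472). Of the other 4 probes, above background on 4, 1, 0 and 0 arrays, A_51_P113068 was above it on no HSC array and on the run 1 arrays of CMP and GMP. It was called lower in HSC subsets (adjusted p = 9.15e-04), and no fold is given because the myeloid side was above background on 4 of 9 arrays. With run its difference was -0.03 ± 0.28 (adjusted p = 0.971). A_52_P24793 was called lower without being well above background on any array, so no fold is given.

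Eif2c4 (Ago4) ran the other way. Its brightest probe, A_52_P27117 (chr4:126166896-126166955, mm9), read 8.56 and 8.04 in LT-HSC, 8.95, 8.51 and 8.36 in ST-HSC and 9.24, 8.85 and 8.64 in MPP. It read 6.86, 7.16 and 8.57 in CMP, 7.23, 6.91 and 8.39 in GMP and 4.92, 5.78 and 6.89 in MEP. The 4.92 was not well above background. MEP lay below every HSC array, and CMP and GMP did so in run 1, while their run 2 arrays fell among the HSC arrays. In run 2 alone the 2 HSC arrays lay above the 3 myeloid ones. The difference between HSC subsets and myeloid populations was 1.64 ± 0.32 (adjusted p = 0.00111) and 1.05 ± 0.25 with run (adjusted p = 0.0196). Under normexp correction it was 0.97, and at the 2 probes that follow 0.54 and 0.34. The probe A_52_P27122, 0.266 kb upstream, differed by 1.07 ± 0.16 (adjusted p = 1.68e-04), and by 0.74 ± 0.29 with run (adjusted p = 0.118). A_52_P525027 differed by 0.57 ± 0.18 (adjusted p = 0.0211), a call lost without the unnumbered LT-HSC array, and by 0.19 ± 0.32 with run (adjusted p = 0.779). A_52_P8444 and A_52_P17422 differed by 0.20 and 0.02, and with run by 0.28 and 0.36, and were called in neither fit. Under 75th-percentile scaling both were called higher (0.74, adjusted p = 7.68e-04, and 0.89, adjusted p = 0.0069), and A_52_P8444 was at -0.04 under normexp correction and -0.01 in the values of the authors, so no direction is given for it.

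Tnrc6a, the GW182 protein that Argonautes bind, gave opposite calls at its 2 ends. The brightest probe, A_51_P509229 (chr7:130338627-130338686, mm9), read 10.32 and 10.57 in LT-HSC, 9.91, 10.24 and 10.27 in ST-HSC and 10.19, 10.24 and 10.09 in MPP. It read 9.08, 8.97 and 9.93 in CMP, 9.25, 9.16 and 9.78 in GMP and 9.60, 9.56 and 10.34 in MEP. The myeloid arrays of run 1 were below all HSC arrays, and those of run 2 reached 9.78 to 10.34, near the HSC arrays. The difference was 0.73 ± 0.17 (adjusted p = 0.00306) and 0.11 ± 0.14 with run (adjusted p = 0.694). A_51_P141136, 1678 bases upstream, differed by 0.54 ± 0.19 (adjusted p = 0.0392) and by 0.41 ± 0.28 with run (adjusted p = 0.399). Its call was lost when any of 10 arrays was left out. It was also lost under 75th-percentile scaling (0.48, adjusted p = 0.0898), under normexp correction (0.39, adjusted p = 0.0543) and in the values of the authors (0.44, adjusted p = 0.0627).

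The most upstream Tnrc6a probe, A_51_P311379, lies 20861 bases upstream of the brightest. It read 3.61 and 3.71 in LT-HSC, 5.41, 3.88 and 2.76 in ST-HSC and 4.67, 3.56 and 3.38 in MPP. It read 5.17, 5.15 and 5.39 in CMP, 4.59, 5.17 and 5.47 in GMP and 5.68, 5.98 and 6.33 in MEP. HSC arrays were lower except the run 2 arrays of ST-HSC and MPP. Both LT-HSC arrays and the first GMP array were not well above background. The difference was -1.59 ± 0.31 (adjusted p = 0.00121), opposite to the 3′ probes, and -0.60 ± 0.33 with run (adjusted p = 0.271). It was -0.71 under 75th-percentile scaling, -0.60 in the values of the authors and -0.30 under normexp correction, and was called in each. The mean of the 3 Tnrc6a probes differed by -0.10 (adjusted p = 0.672), so the array gives no single direction for this gene.

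Compared by the population means of the brightest probes, MEP was the highest population for 5 of the 10 genes, against 34% of the 12438 gene names whose brightest probe was above background on 16 or more arrays. The 5 were Rnasen (13.53 ± 0.25 SD, n = 3), Dgcr8 (7.38 ± 0.02), Xpo5, Tarbp2 (10.49 ± 0.12) and Eif2c2 (10.93 ± 0.46). For Rnasen, Xpo5 and Tarbp2 the MEP arrays lay above those of the next population, as for 15.3% of those gene names, and for Dgcr8 and Eif2c2 they overlapped with it. GMP was highest for Dicer1 (9.74 ± 0.60), CMP for Eif2c1 (8.07 ± 0.34), ST-HSC for Eif2c3 (6.92 ± 0.28), MPP for Eif2c4 (8.91 ± 0.31) and LT-HSC for Tnrc6a (10.44 ± 0.18, n = 2). Of these 5, the highest population overlapped the next for all but Tnrc6a, and MEP was the lowest for Eif2c4 (5.86 ± 0.99).

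Both GMP and MEP were present in runs 1 and 2. In run 1 each of 2 slides held both, while in run 2 they were on different slides scanned on different days, where population and slide cannot be told apart. Without run in the fit, 2 of the 32 probes were higher in GMP, against 9.56% of all probes, and 1 lower, against 7.81%. The median difference was -0.33 against -0.07 over all probes. Under 75th-percentile scaling it was -0.44 against -0.43, and 3 probes were higher and 4 lower, while normexp correction gave 2 and 2 and the values of the authors gave 3 and 2. With replicate number as a block 7 probes were called, and no share of all probes was taken under these alternatives. With run, which leaves these differences as they are and changes their errors, 3 were higher, against 12.5%, and 9 lower, against 12.9%. All 3 higher probes were of Eif2c4, and the 9 lower ones were of Rnasen (2), Xpo5, Tarbp2, Eif2c2 (3) and Tnrc6a (2). Of the 23 probes above background on 13 or more arrays, 16 were lower in GMP in both runs, against 48.9% of all probes above background as often, 4 higher in both, against 33.9%, and 3 of opposite sign. Within the 2 slides of run 1, 15 were lower in GMP on both, against 48.4%, 4 higher on both, against 34.1%, and 4 of opposite sign. The mature erythroid genes also separated the branch, with a list mean of 10.21 to 11.54 in MEP and 5.28 to 6.62 in GMP, and their part in these differences was not tested. On every MEP array 5 of the 5 were above background, and on every GMP array 2 of 5, with 1 above it on none.

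Eif2c4 was lower in MEP than in GMP at 2 of its 3 probes nearest the 3′ end, and at all 3 with run in the fit. At A_52_P8444 (chr4:126169722-126169781, mm9) the GMP arrays read 6.79, 6.30 and 6.29, the CMP arrays 5.96, 6.10 and 6.30, and the MEP arrays 4.0, 4.52 and 4.64. No MEP array was well above background, and the log2 difference was 2.07 ± 0.28 (adjusted p = 1.25e-04). This is 4.21-fold on quantile-normalized processed intensities, an estimate against a signal at background level and not a lower bound. The size depended on the processing: it was 2.30 under 75th-percentile scaling, 1.06 in the values of the authors and 0.63 under normexp correction, with adjusted p of 5.91e-06, 1.89e-04 and 2.53e-04. At A_52_P27122 the GMP arrays read 6.83, 6.53 and 6.54 and the MEP arrays 5.02, 5.51 and 4.98, a difference of 1.46 ± 0.27 (adjusted p = 0.00159), or 0.84 in the values of the authors and 0.50 under normexp correction. At the brightest probe the difference was 1.12 and 2.31 on the 2 slides of run 1 and 1.50 in run 2, which gave 1.64 ± 0.53 (adjusted p = 0.0507) and 1.64 ± 0.22 with run (adjusted p = 1.64e-04). It was also called under 75th-percentile scaling (1.90, adjusted p = 0.0225) and in the values of the authors (1.21, adjusted p = 0.0442), and missed the threshold under normexp correction (0.85, adjusted p = 0.0913). These 3 probes lie within 2826 bases of each other on the genome. A_52_P525027, 18721 bases upstream of the 3′-most probe, differed by -0.12 ± 0.30 (adjusted p = 0.918). At A_52_P17422, 26239 bases upstream, no MEP array and 2 of 3 GMP arrays were well above background, the arrays overlapped, and the test did not pass (adjusted p = 0.116).

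**Figure D3:**
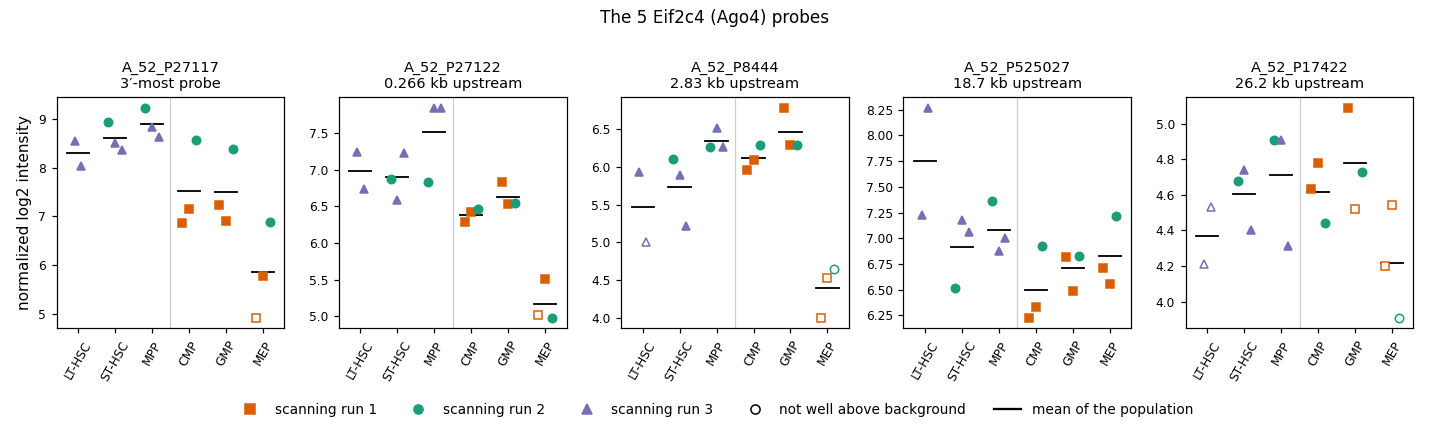
Normalized log2 intensity (vertical axis, a separate scale in each panel) of the 5 Eif2c4 probes on the 17 arrays by population, ordered from the 3′-most probe at left to the most upstream at right, with scanning run by marker and open markers for arrays not well above background. In the 3 panels at left the MEP arrays lie below the GMP arrays, while at A_52_P525027 the GMP and MEP arrays overlap.

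Rnasen moved the other way between the branches. Its brightest probe differed by -0.71 in run 1 and by -0.83 in run 2 (GMP minus MEP), in all by -0.75 ± 0.17 (adjusted p = 0.00749), with no overlap. Eif2c2 was lower in GMP at all 3 probes with run in the fit, by -0.68 ± 0.18 (adjusted p = 0.0166), -0.89 ± 0.12 (adjusted p = 2.35e-04) and -0.82 ± 0.23 (adjusted p = 0.0207), and none passed without it. Tarbp2 differed by -0.47 ± 0.16 (adjusted p = 0.0692), and by -0.47 ± 0.11 with run (adjusted p = 0.00774). Xpo5 differed by -0.45 ± 0.22 at its brightest probe (adjusted p = 0.221), and by -0.45 ± 0.12 with run (adjusted p = 0.0139). Its other bright probe, A_51_P152191, differed by -0.15 ± 0.16 with run (adjusted p = 0.609), at -0.38 in run 1 and 0.31 in run 2. Dicer1 differed by 0.27 ± 0.39 (adjusted p = 0.786) and 0.06 ± 0.32 (adjusted p = 0.978), and with run by 0.27 ± 0.14 (adjusted p = 0.198) and 0.06 ± 0.19 (adjusted p = 0.905).

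**Figure D4:**
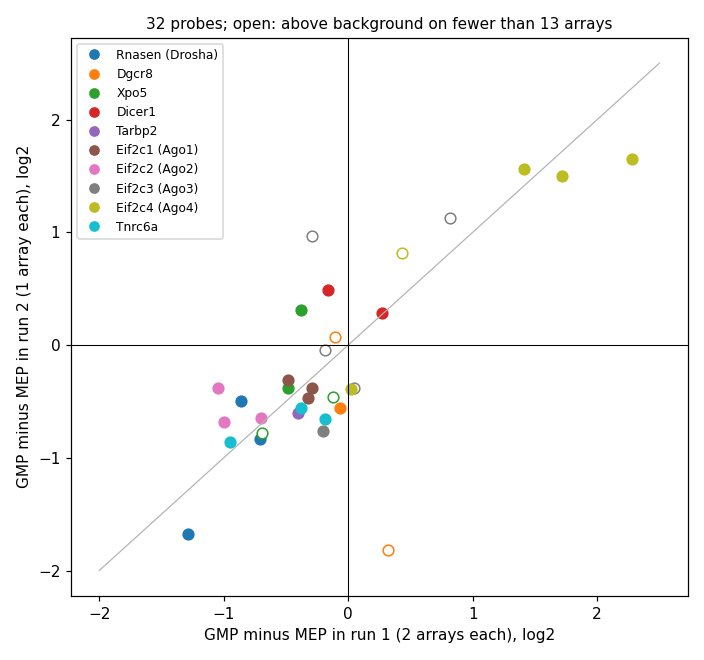
Difference in normalized log2 intensity between GMP and MEP for the 32 probes, in scanning run 1 (horizontal, 2 arrays a population) and in run 2 (vertical, 1 array a population); colour gives the gene, open points were above background on fewer than 13 arrays and the grey line marks equal values. At top right lie 3 Eif2c4 probes, at 1.41 to 2.28 in run 1 and 1.50 to 1.65 in run 2, and the probes of Rnasen, Eif2c2 and Tarbp2 lie at bottom left.

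Along the 5 steps of the hierarchy 10 calls were made without run in the fit, and the steps that had any did so at shares of the members near those of all probes. By limma with Benjamini-Hochberg adjustment no member probe passed from LT-HSC to ST-HSC, where 3.34% of all probes did, from ST-HSC to MPP (2.02%) or from CMP to GMP (4.77%), and at an unadjusted p of 0.05 the counts were 2, 2 and 0. With run in the fit these steps gave 0 (8.81% of all probes), 0 (3.66%) and 1 (8.35%), the last being the brightest Xpo5 probe, at 0.46 ± 0.12 (adjusted p = 0.032). From MPP to CMP 5 of 32 passed, against 12.1% of all probes. A_52_P578347 of Rnasen rose by 1.49 ± 0.43, Xpo5 rose by 1.29 ± 0.22 and 1.65 ± 0.37 at its 2 bright probes, A_51_P333060 of Dicer1 rose by 1.46 ± 0.32, and A_52_P27122 of Eif2c4 changed by -1.13 ± 0.27. With run in the fit, only the brightest Xpo5 probe passed this step (0.72 ± 0.16, adjusted p = 0.0314), against 3.73% of all probes. From CMP to MEP 5 of 32 passed, against 16.7%: the brightest probes of Rnasen (0.64 ± 0.17) and Xpo5 (0.91 ± 0.22) rose, and 3 Eif2c4 probes fell, with differences of -1.67 ± 0.53, -1.22 ± 0.27 and -1.73 ± 0.28. With run 12 passed, against 25.6%: the same 3 of Eif2c4 fell, and 2 probes each of Rnasen and Xpo5, 1 of Tarbp2, 3 of Eif2c2 and 1 of Tnrc6a rose. The 10 calls over these steps depended on single arrays: 4 or 5 passed when an MPP array (replicate 2) or a CMP array (replicate 1 or 2) was left out, and 6 without MPP replicate 3, while 15 passed without the pooled LT-HSC or the unnumbered CMP array.

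The other genes of the pathway, 62 of 66 listed names found on the array and each read at its brightest probe, moved in both directions. In HSC subsets 15 were higher, where 21.7% of all gene names were, and 18 lower, where 19.1% were, and the median difference was 0.08 against 0.04. With run in the fit 6 were higher, against 8.38%, and 6 lower, against 7.71%. Between GMP and MEP 3 were higher in GMP, against 10.5%, and 5 lower, against 8.51%. The called genes included 10 whose HSC and myeloid arrays did not overlap, 3 higher, against 3.1% of all gene names, and 7 lower, against 4.08%. The largest of the lower ones were Ars2, a cap-binding partner of the Drosha step (-2.13 ± 0.28, adjusted p = 4.71e-05), Fkbp4, an Hsp90 cochaperone (-1.89 ± 0.23, adjusted p = 2.53e-05), and Gemin4, found in complexes with Argonaute (-1.80 ± 0.16, adjusted p = 2.57e-06). They were followed by the exonuclease Xrn1 (-1.77 ± 0.28, adjusted p = 2.03e-04) and the decapping enhancer Edc3 (-1.53 ± 0.18, adjusted p = 1.99e-05). With run, Fkbp4 (-0.67, adjusted p = 0.0117), Gemin4 (-1.17, adjusted p = 0.0104) and Xrn1 (-1.08, adjusted p = 0.0354) still passed, and Ars2 (-0.70, adjusted p = 0.128) and Edc3 (-0.66, adjusted p = 0.054) did not.

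The higher genes included the RNA editing enzyme Adarb1 (2.90 ± 0.24, adjusted p = 1.11e-06) and the helicase Ddx5 of the Drosha complex (0.84 ± 0.11, adjusted p = 6.51e-05). With run, Adarb1 (2.23, adjusted p = 0.00355) and Ddx5 (0.42, adjusted p = 0.0488) passed. Of the paralogs of Tnrc6a, Tnrc6b was higher by 0.37 ± 0.11 (adjusted p = 0.0163; 0.35 with run, adjusted p = 0.308) and Tnrc6c differed by 0.03 ± 0.11 (adjusted p = 0.825; -0.13 with run, adjusted p = 0.768). Of the Piwi clade, the germline relatives of the Argonautes, Piwil1 was above background on no array. Piwil2 was above it on 4 of 8 HSC arrays and on no myeloid array and was called higher in HSC subsets (adjusted p = 0.00251, and 0.00153 with run). Piwil4 was above it on 3 HSC arrays and no myeloid array and was not called (adjusted p = 0.12, and 0.259 with run). No fold is given for either, since the brighter side was above background on so few arrays.

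**Figure D5:**
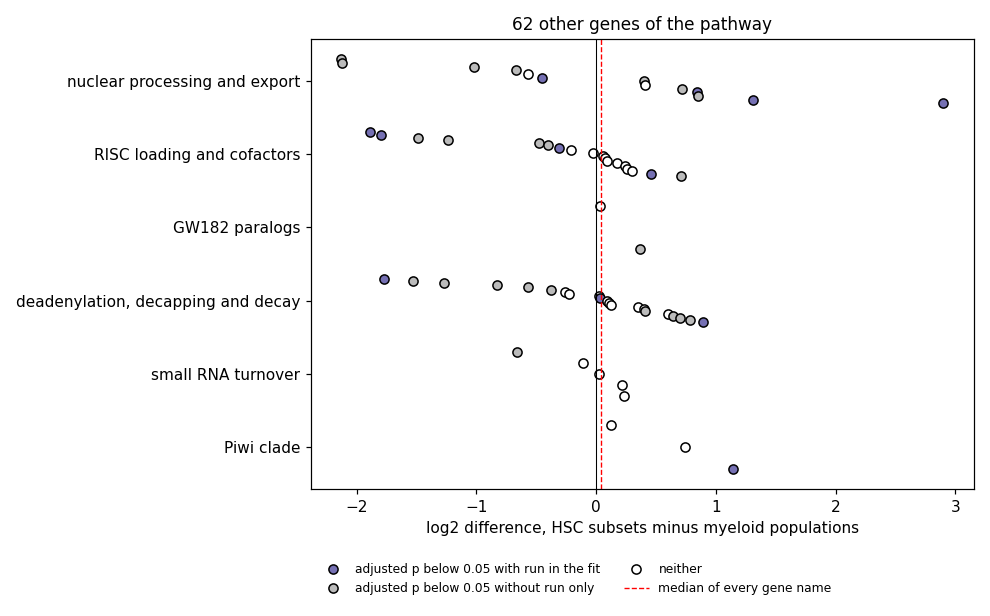
Difference in normalized log2 intensity between HSC subsets and myeloid populations for the 62 other pathway genes, by list (rows, points offset vertically for legibility); fill tells whether the adjusted p was below 0.05 with scanning run in the fit, only without it, or neither, and the dashed line is the median of every gene name, 0.04. Points lie on both sides of 0 in the 3 larger lists, from -2.13 for Ars2 to 2.90 for Adarb1.

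Genes with the most similar profile over the 17 arrays were sought among 14741 probes well above background on every array. The highest Pearson correlations were 0.98 for Eif2c4 with Trim30 and AI747699 and 0.98 for Xpo5 with Acsl1 and AI561439. Eif2c2 followed with Pus7 (0.97) and Kpna3 (0.96), Tarbp2 with 1300001I01Rik (0.97) and Vars2 (0.96) and Tnrc6a with 1110054P19Rik and Prpf18 (0.96 each). Rnasen was most like Glo1 and Nbn (0.95 each), Dgcr8 like Zbtb40 (0.95), Dicer1 like Adipor2 (0.93) and Suds3 (0.92), Eif2c1 like Ndrg3 and Cd47 (0.92 each) and Eif2c3 like Wrnip1 (0.91) and Snapc1 (0.89). The 17 arrays behind these correlations share populations and scanning runs.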

How the data were processed

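Total RNA was hybridised by the authors to single-colour Agilent whole-genome mouse arrays, 1 array per sample. The deposited scanner files hold spot intensities from Agilent Feature Extraction, background-subtracted per the file headers, and flags for outlier, saturated and background-level spots. The deposited series table holds log2 values that the authors had quantile-normalized with limma (version not given in the sources used here), and its columns rank spots as the median intensities do. Log2 processed intensities were quantile-normalized over all spots, 1639 control spots among them. Of the 43379 non-control spots, outlier spots were then left out (161 missing probe values), and spots of a probe were averaged to 41174 probes. Probe positions are those of the file headers (mm9), and no exon annotation of that build was used here. Groups came from the sample titles.

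A linear model with the 6 populations was fitted with limma 3.58.1 in R 4.3.3 (lmFit, eBayes), with Benjamini-Hochberg adjustment over all probes and a threshold of 0.05. HSC subsets against myeloid populations compares the means of 3 population means. The genes of the pathway were tested at the brightest probe of each gene name. Where a side was not well above background on any array, a fold was taken against the dim probe. On each array the lowest signal well above background was used instead where that was higher. For Eif2c4 A_52_P8444 the mean of this reference in MEP was that of the dim probe, 4.39. The number of arrays limits the precision, and runs were told apart by the scanner part of the file names. Alternatives were the 75th-percentile scaling, normexp with offset 50, the authors' table, a filter for probes above background on at least 2 arrays, run, slide or replicate number in the fit, gene means, and leaving arrays out. The fit was tested on simulated data that held no effect of scanning run or slide, so that test does not cover such effects.

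The members and lists were chosen with earlier results of these data known. Array values are given for the brightest probe of each member and for a probe called the opposite way. Of the pathway list, the 5 largest called differences each way without overlap and all GW182 paralogs and Piwi genes were named. Likeness was ranked by Pearson correlation. A few items that these rules select are not reported here.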

Additional observations from a re-analysis of the deposited data

How the results depend on the processing

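With scanning run in the fit, member probes past the F-test went from 17 to 11 and GMP-to-MEP calls from 3 to 12. Those higher in HSC subsets went from 5 to 1, those lower from 16 to 6, and pathway genes called from 33 to 12. No share of all probes past the F-test with run was taken, nor any under the alternatives that follow. These counts therefore show dependence on the processing and no trait of the members. With slide as a random block 3 probes were higher, with both LT-HSC arrays left out 3, and GMP-to-MEP calls were 5 with slide, 5 from the authors' table and 7 under 75th-percentile scaling. With gene means, which count 10 genes in place of 32 probes, 8 passed the F-test, 1 was higher, 7 lower, and 5 calls were made over the 5 steps. Deviations of same-numbered arrays of different populations correlated at 0.13 to 0.52 within a run (8 pairs) and at -0.06 to 0.01 across runs (6 pairs), against 0.09 to 0.33 for differently numbered arrays within a run. In run 1 the numbers coincide with the slides, and the labels do not say what a number marks, so a pairing was not assumed. The replicate block gave 7 GMP-to-MEP calls and 18 probes past the F-test. Leaving out each array gave 14 to 20 probes past the F-test, 3 to 5 higher (3 without the unnumbered LT-HSC array), 15 to 16 lower, 3 to 4 between GMP and MEP, 4 to 15 over the steps and 32 to 36 pathway genes.

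Among the called differences, signs turned for Eif2c1 A_52_P313035 under 75th-percentile scaling (0.23), for Eif2c3 A_52_P24793, at background throughout, under that scaling (0.13), normexp (0.03) and run (0.10), and for Tnrc6a with gene means (-0.10). Among those not called, Eif2c3 A_52_P126513 went from 0.18 to -0.48 with run and Eif2c4 A_52_P8444 from 0.20 to -0.04 under normexp and -0.01 in the authors' values, and others also turned. Of 24 single-probe differences followed, 19 kept direction and call when each array was left out and 9 in every other setting. The cause of these shifts was not tested. Between HSC subsets and myeloid populations, run 2 alone holds both sides, and differences of dim probes, such as Xpo5 A_52_P209328, rest largely on signals near background.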
